A study of Mus musculus with 6 samples.

Results

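The 10 major histocompatibility complex (MHC) class I genes H2-Bl, H2-K1, H2-D1, H2-Q1, H2-Q2, H2-T3, H2-T10, H2-T22, H2-T23 and H2-M3 were followed in mouse small intestinal crypts. They are 10 of the 55331 genes listed in the deposited expression table, and all 10 are among the 15460 genes that the authors tested. The set was built around H2-Bl, which was picked because its level differed between the genotypes compared here, so that difference is given as a description and not as a test. The members were found by their gene symbols in the expression table and in 5 tables of alternative splicing, which hold 78 events of these genes among 61715 events in all.

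The study compared crypt cells of C57BL/6 mice aged 60 days, in a WT group with the genotype Ptbp1f/f and a PTBP1_KO group with the genotype Ptbp1f/f;Vil-creER+/-, with 3 libraries in each. Ptbp1 encodes a pyrimidine-tract-binding RNA protein that regulates splicing, and Vil-creER is a tamoxifen-dependent Cre recombinase driven by the villin promoter, which is active in intestinal epithelium. Both groups carried floxed Ptbp1 alleles and both received tamoxifen at 100 mg/kg, so they differed in the Cre transgene. Crypt cells were released with 2 mM EDTA, passed through a 70 µm strainer and collected 20 h after injection 2. The labels do not say that libraries of a group came from separate mice, so any p-value covers only the spread between these samples, which may be technical in part.

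MHC class I molecules are heavy chains that pair with beta-2 microglobulin (B2m) and display peptides at the cell surface. The classical molecules H2-K and H2-D present peptides made by the proteasome to CD8 T cells. The nonclassical molecules, among them those of the Q, T and M regions, are less variable and several are read by intraepithelial lymphocytes or natural killer cells, which lie close to the intestinal epithelium.

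All 10 genes lie on chromosome 17 in the mm10 annotation (GENCODE M21). H2-Bl occupies chr17:36080115-36084223 on the minus strand. H2-T10 starts 37.2 kb, H2-T22 41.5 kb, H2-T23 51.4 kb and H2-T3 106.1 kb from the start of H2-Bl. The other members are farther away, from 737.5 kb for H2-Q2 to 2083.9 kb for H2-K1. H2-Bl and H2-T10 are annotated as polymorphic pseudogenes, a class for genes that are coding in some strains and not in the reference, and the other 8 are annotated as protein coding.

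The splicing results turned on 4 stretches of these genes, which are shown 5′ to 3′ on the transcribed strand, as the transcripts of the same annotation give them. In H2-Bl exon 2 (first 60 bases, chr17:36083906-36083965, minus strand, coding in the annotated transcript), the capitals mark the AG pairs that end the 26-base and 33-base stretches left out when an inner 3′ splice site is used. In H2-Bl exon 3 (chr17:36083233-36083508, minus strand, 276 bases, coding), the capitals mark the first 74 bases, which an inner 3′ splice site leaves out. In H2-T10 (chr17:36120271-36120321, minus strand), the capitals mark an 11-base gap that the authors' table lists as an intron, with 20 bases on each side. In H2-T3 (chr17:36189871-36190049, minus strand, 179 bases), the capitals mark the first and last bases of an intron that some reads retained.
H2-Bl exon 2: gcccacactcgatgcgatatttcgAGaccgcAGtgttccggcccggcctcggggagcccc
H2-Bl exon 3: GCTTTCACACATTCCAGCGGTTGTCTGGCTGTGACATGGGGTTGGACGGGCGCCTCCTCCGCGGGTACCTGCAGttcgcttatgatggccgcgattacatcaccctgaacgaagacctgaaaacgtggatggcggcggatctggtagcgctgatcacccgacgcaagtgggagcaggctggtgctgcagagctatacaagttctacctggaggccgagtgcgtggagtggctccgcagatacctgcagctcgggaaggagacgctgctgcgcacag
H2-T10 gap: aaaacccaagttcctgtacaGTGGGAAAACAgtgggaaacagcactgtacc
H2-T3 intron: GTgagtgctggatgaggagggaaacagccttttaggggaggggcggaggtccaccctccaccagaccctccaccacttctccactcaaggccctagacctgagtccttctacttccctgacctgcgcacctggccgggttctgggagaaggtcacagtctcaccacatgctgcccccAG
Of the H2-Bl segments, 276 and 33 bases are multiples of 3, whereas 26 and 74 bases are not. The H2-T10 gap begins with GT but ends with CA, and its first 8 bases are repeated right after it.

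The members resemble each other in sequence, which bears on how reads could be assigned to them. The coding sequence of H2-Bl was 89.4% identical to that of H2-D1, 87.6% to H2-Q1 and 86.7% to H2-K1, and 71.7% to H2-T10, its lowest value among the members. H2-T10 and H2-T22 were the closest pair, at 96.3%. In 1 annotated transcript taken for each member, H2-Bl shared 11.8% of its 50-base stretches with transcripts of other genes, most often with H2-Q1. The share was 46.4% for H2-T22 and 42.9% for H2-T10, against 1.24% for H2-T3 and 0.576% for H2-M3. Reads from such stretches could come from more than 1 gene, so values of H2-T22 and H2-T10 are the least certain by this measure, and how the counting treated such reads is not given in the sources used here.

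The label of intestinal epithelial cells was checked against marker lists, which do not tell crypt from villus. All 7 epithelial markers were present, at 227 to 2011 FPKM (fragments normalised to transcript length and library depth) in WT, and 7 of 8 stromal and endothelial markers were below 1 FPKM in both groups. Leukocyte and antigen-presenting cell markers were also present and are given beside the receptors for class I. Ptbp1 itself was at 230.0 FPKM in WT and 122.8 FPKM in PTBP1_KO. The skipped-exon table held 32226951 to 39774266 reads per library.

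The expression table holds 1 FPKM value per group, so no spread between libraries stands behind the levels that follow, and any p, q and log2 fold change is that of the authors' deposited table. H2-Bl, a class I gene named for the blastocyst, had a level of 93.6 FPKM in the WT group against 24.1 FPKM in the PTBP1_KO group, which is 25.7% of the former. In the authors' deposited table this is a log2 fold change of -1.96 with a p of 5e-05, the smallest p listed there and shared by 62 genes, and a q of 0.0125. In the authors' deposited table, 0.149% of tested genes were lower at a q below 0.05, and 4 of them had a log2 fold change more negative than that of H2-Bl. In bulk samples, fewer cells of a type and less RNA per cell cannot be told apart.

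H2-K1 and H2-D1, the classical heavy chains, made up 75.1% of the summed class I FPKM in WT and 76.0% in PTBP1_KO. H2-K1 had 1337 FPKM in WT and, in PTBP1_KO, 1291 FPKM, with a log2 fold change of -0.05 and a p of 0.858 in the authors' deposited table. For H2-D1 the levels were 318 and 367 FPKM, with a log2 fold change of 0.20 and a p of 0.259 in the authors' deposited table. Neither classical gene passed the test.

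Among the nonclassical members, H2-Q2 was the most abundant, at 239 FPKM in WT and 252 FPKM in PTBP1_KO, and its neighbour H2-Q1 was at 22.98 and 23.50 FPKM. H2-T3 encodes the thymus leukemia antigen, a ligand of CD8αα on intraepithelial lymphocytes, and was at 91.9 FPKM in WT and 101 FPKM in PTBP1_KO. H2-T23 encodes Qa-1, which is recognised by CD94/NKG2 receptors, and was at 77.8 and 95.5 FPKM, with a p of 0.0954 in the authors' deposited table. The p of H2-Q1, H2-Q2 and H2-T3 ranged from 0.403 to 0.836 in the authors' deposited table, and none of these 4 genes passed.

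H2-T22 and H2-T10 encode molecules that some γδ T cell receptors bind. H2-T22 was at 17.3 FPKM in WT and 20.4 FPKM in PTBP1_KO, and it shares 1 Cufflinks locus with H2-T23. H2-T10 was at 3.32 and 2.15 FPKM, with a log2 fold change of -0.63, a p of 0.0398 and a q of 1 in the authors' deposited table. H2-M3, which presents N-formylated peptides, was at 2.38 and 3.65 FPKM, with a log2 fold change of 0.62, a p of 0.0252 and a q of 0.834 in the authors' deposited table. Neither of these low-level genes passed after adjustment over all tested genes.

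In order of WT level the members ran H2-K1, H2-D1, H2-Q2, H2-Bl, H2-T3, H2-T23, H2-Q1, H2-T22, H2-T10 and H2-M3. Without values per library, no neighbours in this order could be told apart. In PTBP1_KO, H2-Bl stood just above H2-Q1, and H2-M3 stood above H2-T10.

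**Figure D1:**
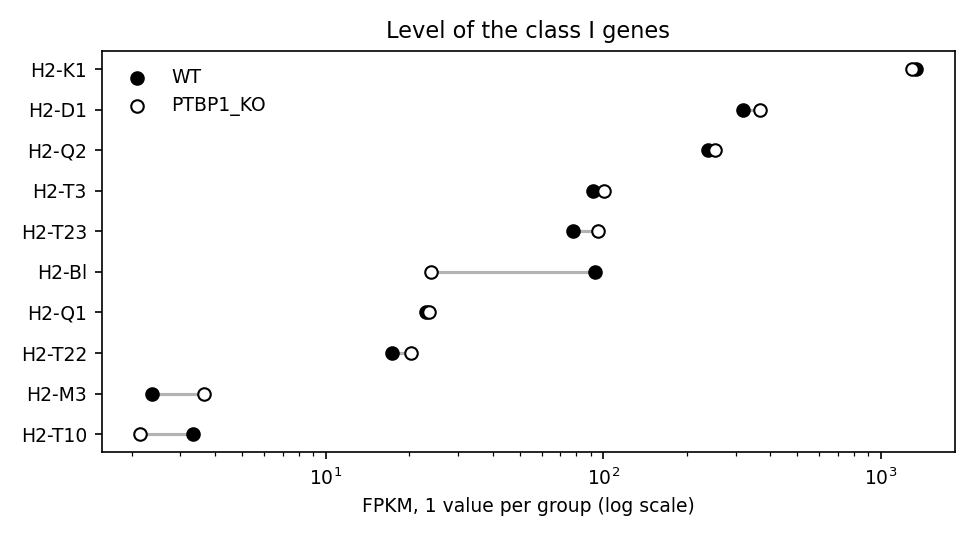
FPKM of the 10 class I genes in WT (filled circles) and PTBP1_KO (open circles) on a log axis, 1 value per group and no error. H2-Bl spans 93.6 to 24.1 FPKM, while H2-K1 stays at 1337 and 1291 FPKM.

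Of the 10 members, 1 had a q below 0.05 in the authors' deposited table, H2-Bl, against 0.537% of all tested genes, and since H2-Bl was chosen by this contrast nothing is read from that count. An unadjusted p below 0.05 was listed for 3 members (H2-Bl, H2-T10 and H2-M3) in the authors' deposited table, beside 4.35% of all tested genes. Of the members 7 were higher and 3 lower in PTBP1_KO, where 54.7% of all tested genes were higher. The median log2((PTBP1_KO + 1)/(WT + 1)) of the members was 0.11, and 0.14 for the 9 members without H2-Bl, beside 0.02 for all tested genes. The summed class I level was 2203 FPKM in WT and 2180 FPKM in PTBP1_KO, and without H2-Bl it was 2110 and 2156 FPKM. H2-Bl supplied 4.25% of the sum in WT and 1.104% in PTBP1_KO.

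The splicing tables give reads for each of 6 libraries in 2 sets of 3, with no genotype in their headers, so the sets are called first and second and no direction by genotype is given. A pair of libraries stood apart in what follows: libraries 1 and 3 of the second set, which were singled out after their values were seen. Where a difference is given without this pair, library 2 alone stands for the second set. As the pair was picked by its values, a smaller difference without it is a description and no separate result. For each gene, the reads of its best-covered event were scaled by a factor per library. These scaled reads are not per length, so they compare libraries and not genes.

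H2-Bl had 935, 463 and 408 scaled reads in libraries 1, 2 and 3 of the first set, and 4655, 624 and 3633 in those of the second. Libraries 1 and 3 of the second set were far above the other 4, while library 2 of the second set fell within the range of the first set. The highest library was 11.4 times the lowest over all 6, and 7.46 times the lowest within the second set. Within the first set that ratio was 2.29. The FPKM levels of WT and PTBP1_KO differed 3.89-fold. That is a ratio of whole-gene levels of groups, so it cannot be set directly against a highest-over-lowest ratio of the reads of 1 event.

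Of all genes with an event of at least 20 reads on average, 2.21% had a ratio of at least 4 between the highest and lowest library, and among the members H2-Bl was the only one. A ratio at least as large as that of H2-Bl occurred in 38 of 9337 genes, and in 9 of the 6410 genes with at least 200 reads on average, of which 0.515% had a ratio of at least 4. The other 9 members ranged from 1.51 for H2-D1 to 2.31 for H2-T10, where the median over all genes was 1.48.

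The classical genes varied 1.62-fold (H2-K1) and 1.51-fold (H2-D1) between the highest and lowest library. H2-K1 had 31728, 25572 and 27395 scaled reads in the first set and 29599, 24608 and 19564 in the second, and H2-D1 ran from 17987 to 27236. Both were lowest in library 3 of the second set, where H2-Bl was high. B2m, their light chain, was also lowest there, at 46834, and ran up to 74565 in library 1 of the first set.

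The Q genes were highest in library 1 of the first set, H2-Q1 at 1691 scaled reads beside 736 to 1017 in the other 5 libraries, and H2-Q2 at 7977 beside 3564 to 5989. H2-T3 and H2-T23 were highest in the same library, at 5210 and 5414, and lowest in library 3 of the second set, at 2665 and 2357. The epithelial marker list, summed over 6 genes with an event, was also highest in library 1 of the first set, at 222506 beside 165090 to 186249 in the others. Its part in these values was not tested.

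H2-T22 lay between 369 and 592 scaled reads, and H2-T10 between 42.4 and 97.7. H2-M3 was at 108, 110 and 128 in the first set and at 64.8, 82.1 and 60.2 in the second. It was the only member whose sets did not overlap, as was so for 11.9% of all genes. Libraries 1 and 3 of the second set were its lowest, where those of H2-Bl were highest. In H2-T22 and H2-T10 these libraries were not apart from the other 4 on 1 side.

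**Figure D2:**
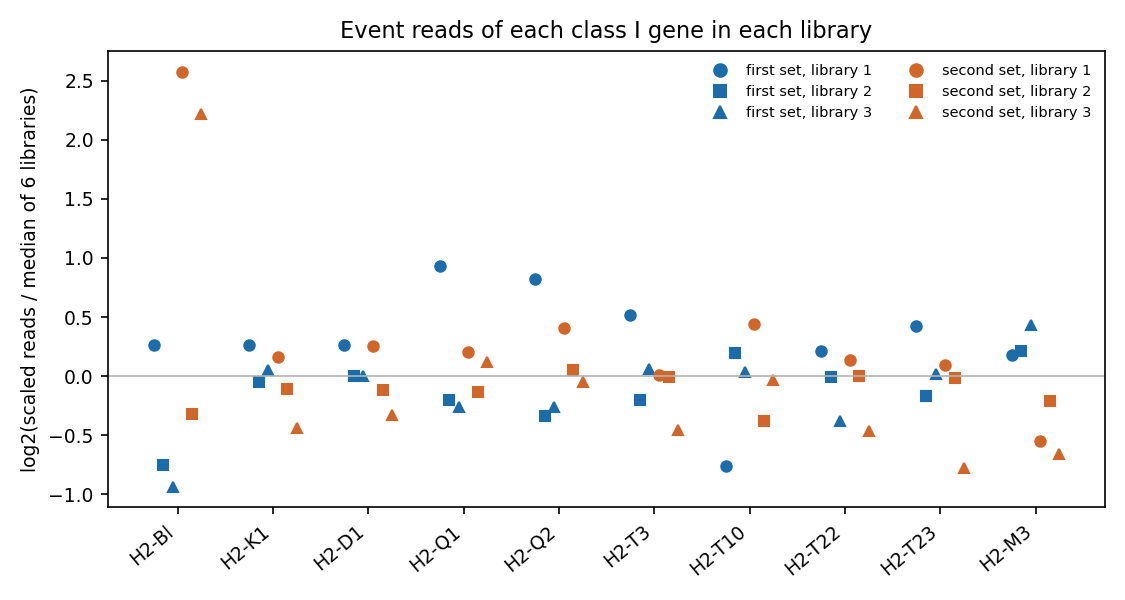
Scaled event reads of each class I gene in each of the 6 libraries, as log2 over the gene's median, with colour for the authors' set and shape for the library number; 0 is the median. For H2-Bl, libraries 1 and 3 of the second set lie above all others, and in H2-M3 the same libraries are the lowest, at 64.8 and 60.2 scaled reads.

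Marker lists of 3 other kinds of cell had events, and none had libraries 1 and 3 of the second set as its highest, while the stroma and endothelium list had 0 genes with an event. The leukocyte list, summed over 7 genes with an event, had 2989, 6189 and 5820 scaled reads in the first set and 4773, 3197 and 1255 in the second, so libraries 1 and 3 of the second set were not alike in it. The list for B and plasma cells (3 genes) ran from 87.5 in library 3 of the second set to 1292 in library 2 of the first, and that for antigen-presenting cells (6 genes) from 37090 in library 3 of the second set to 64549 in library 1 of the first. Ddx3y, a Y-linked gene that marks male mice, had reads in library 2 of the first set (325 reads) and library 3 of the second (347 reads). It had 0 in the other 4, so each set held 1 such library. H2-Bl was low in library 2 of the first set and high in library 3 of the second. The libraries of a set thus did not all come from the same mouse, and whether the others of a set did is not given.

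The genes around H2-Bl were examined for the same pattern. The nearest annotated genes, the unprocessed pseudogenes Gm8810 and Gm20530, lie 12361 and 9957 bases away. Within 500 kb, 24 genes had an event, and their median ratio of highest to lowest library was 1.86. Of the 24, 3 reached 4, H2-Bl and the sparsely read H2-T24 and H2-T-ps. Neither H2-T24 nor H2-T-ps had the pattern of H2-Bl. In them library 1 of the second set was highest, at 56.3 and 82.8 scaled reads. Library 3 of that set was lowest, at 8.20 and 17.3. In the expression table, 15 other tested genes lie within 110 kb of H2-Bl, of which 7 were lower and 8 higher in PTBP1_KO and 0 had a q below 0.05 in the authors' deposited table. An unadjusted p below 0.05 was listed for 5 of the 15 in the authors' deposited table, beside 4.35% of all tested genes. Lower among the 5 were H2-T10 and the class I pseudogene H2-T-ps, which went from 3.03 to 1.17 FPKM. H2-T10 and H2-T-ps share the same Cufflinks locus. Higher were Gm10499, at 33.2 and 44.7 FPKM with the smallest p of the 5 in the authors' deposited table (0.00595), Gm11127, at 6.71 and 9.28 FPKM, and Gm6623, at 0.184 and 0.591 FPKM.

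**Figure D3:**
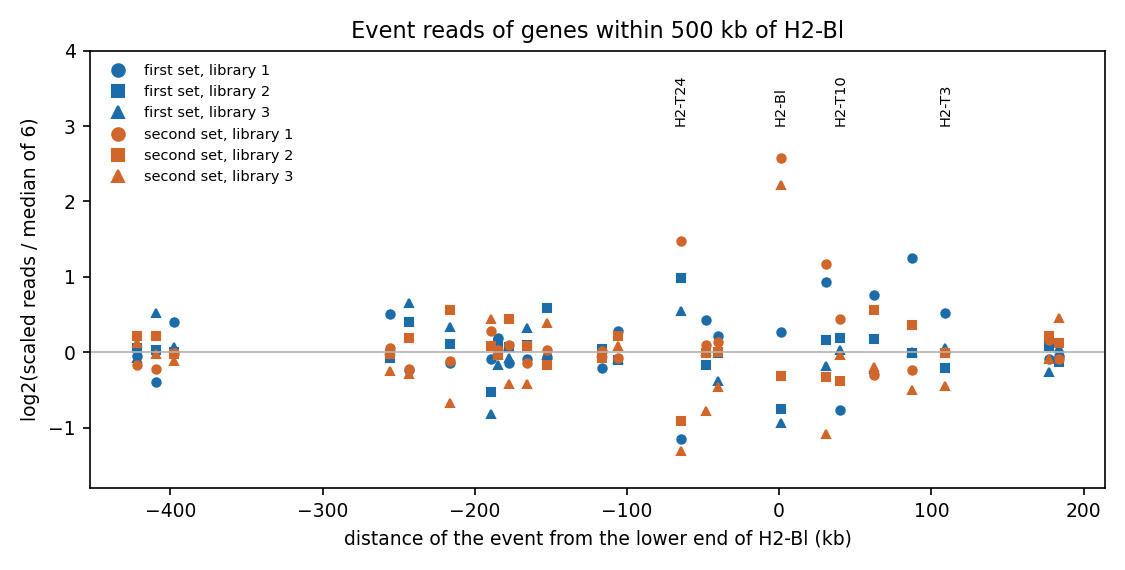
Scaled event reads of the 24 genes with an event within 500 kb of H2-Bl, as log2 over each gene's median of 6 libraries, against distance from H2-Bl in kb. At H2-Bl, libraries 1 and 3 of the second set stand well above the other 4, and the sparsely read H2-T24 also scatters widely.

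Of the 78 splicing events of the members, 76 had at least 20 reads on average. By the authors' event types they were 46 skipped exons, 2 alternative 5′ sites, 12 alternative 3′ sites, 9 pairs of mutually exclusive exons and 7 retained introns. An event was called at a false discovery rate (FDR) below 0.05 and a difference of at least 0.1 in inclusion level, the length-corrected share of reads that carry the longer form or, for mutually exclusive exons, 1 of the exons. Of the member events 4 (5.26%) were called in the authors' deposited table, in H2-Bl and H2-T10, beside 1.56% of all events. At FDR alone 9 events (11.8%) in H2-Bl, H2-T3 and H2-T10 passed in the authors' deposited table, beside 3.76% of all events. Several of these events share reads and exons, so they are not separate observations. In 58 of the 76 events the inclusion level varied by less than 0.1 over the 6 libraries.

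Exons 2 and 3 of class I genes encode the domains that form the peptide groove. Inclusion of H2-Bl exon 3 was 0.963, 0.975 and 1 in libraries 1, 2 and 3 of the first set, and 0.787, 0.990 and 0.839 in those of the second. Reads that skip the exon numbered 7, 3 and 0 in the first set and 366, 1 and 254 in the second, so nearly all came from libraries 1 and 3 of the second set, which also had the most H2-Bl reads. The difference, first set minus second, was 0.107 with an FDR of 5.97e-09 in the authors' deposited table, and without those libraries it was -0.01. For the same exon with its inner 3′ site, the levels were 0.916, 0.954 and 1 in the first set and 0.618, 0.979 and 0.723 in the second. This second event uses the same skipping reads, and its difference of 0.183 with an FDR of 0.000254 in the authors' deposited table became -0.02 without the same pair of libraries. Leaving out 1 library at a time moved it from 0.105, without library 1 of the second set, to 0.286, without library 2 of that set.

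The 26 bases at the start of H2-Bl exon 2 were included at levels of 0.783, 0.748 and 0.660 in the first set and 0.917, 0.661 and 0.954 in the second. The difference was -0.114 with an FDR of 0.0170 in the authors' deposited table, and without libraries 1 and 3 of the second set it was 0.07. Against this 26-base inner site the outer site took its highest share in those libraries. Against the 33-base inner site it took its lowest, at 0.767 and 0.766 in libraries 1 and 3 of the second set beside 0.787 to 0.881 in the other 4, with a difference of 0.036 and an FDR of 0.251 in the authors' deposited table. Between the inner sites, the 26-base site was used at 0.374 and 0.285 in those libraries and at 0.622 to 0.746 in the other 4, with a difference of 0.211 and an FDR of 0.232 in the authors' deposited table. Neither of these events was called, and the 3 events share reads. The 74 bases at the start of exon 3 were included at 0.925 to 0.959 in the first set and at 1, 0.953 and 0.992 in the second, with a difference of -0.043 and an FDR of 9.45e-09 in the authors' deposited table. That event was below the size needed for a call, and without libraries 1 and 3 of the second set its difference was -0.0138.

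In H2-T10 the 11-base gap was read through in every read of 4 libraries and in only some reads of the others. Reads without the 11 bases numbered 0 in each first-set library, and 20, 0 and 16 in libraries 1, 2 and 3 of the second set. Reads with them numbered 22, 63 and 53 in the first set and 33, 38 and 28 in the second. As a plain share of reads, 62.3% kept the 11 bases in library 1 of the second set (Wilson 95% interval 48.8% to 74.1%) and 63.6% in library 3 (48.9% to 76.2%). In library 1 of the first set, with 22 reads, the share was 100% (85.1% to 100%), and these intervals cover counting error only. The inclusion level difference was 0.259 with an FDR of 3.40e-07 in the authors' deposited table, and 0 without libraries 1 and 3 of the second set. The scaled reads of H2-T10 in libraries 1 and 3 of the second set were 97.7 and 70.2, beside 42.4 to 82.1 in the other 4, and did not stand apart as those of H2-Bl did.

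In H2-T3 a 3′ splice site 73 bases upstream of the main one was used at levels of 0.0101, 0.0175 and 0.0143 in the first set, and 0.136, 0.0183 and 0.152 in the second. Its difference was -0.088 with an FDR listed as 0 in the authors' deposited table, and without libraries 1 and 3 of the second set it was -0.00437. The event of a second site, 88 bases upstream, had levels of 0.0107 to 0.0172 in 4 libraries and of 0.118 and 0.114 in libraries 1 and 3 of the second set. It shares its skipping reads with the first. Its 88 bases contain the 73, so inclusion reads can count in both events, and neither level is the use of 1 site alone.

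Retention of the 179-base H2-T3 intron was 0.00594, 0.00778 and 0.00652 in the first set and 0.109, 0.00689 and 0.172 in the second. The difference was -0.089 with an FDR listed as 0 in the authors' deposited table, and -0.000137 without libraries 1 and 3 of the second set. A 114-base exon of H2-T3 was included at 0.973 to 0.975 in the first set and at 0.994, 0.983 and 0.989 in the second, so the sets did not overlap. Its difference was -0.015 with an FDR of 0.000168 in the authors' deposited table, and -0.0093 without libraries 1 and 3 of the second set. None of the 4 H2-T3 events reached a difference of 0.1. Total H2-T3 reads in those libraries, 3669 and 2665 scaled reads, did not stand above the other 4.

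In all 9 member events with an FDR below 0.05, libraries 1 and 3 of the second set both lay outside the range of the other 4, on the same side. This was so for 12 of the 67 other member events. The pair was singled out after these values were seen, the 9 events were picked by their FDR and several events share reads. The counts are therefore a description. The share over all events is not given, so nothing particular to these genes is read from the counts. H2-Bl, H2-T10 and H2-T3 lie within 106.1 kb of each other. Of 12 events in 5 genes that are no members but lie within 110 kb of H2-Bl, 1 had an FDR below 0.05 and 0 were called in the authors' deposited table. What set libraries 1 and 3 of the second set apart was not tested.

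**Figure D4:**
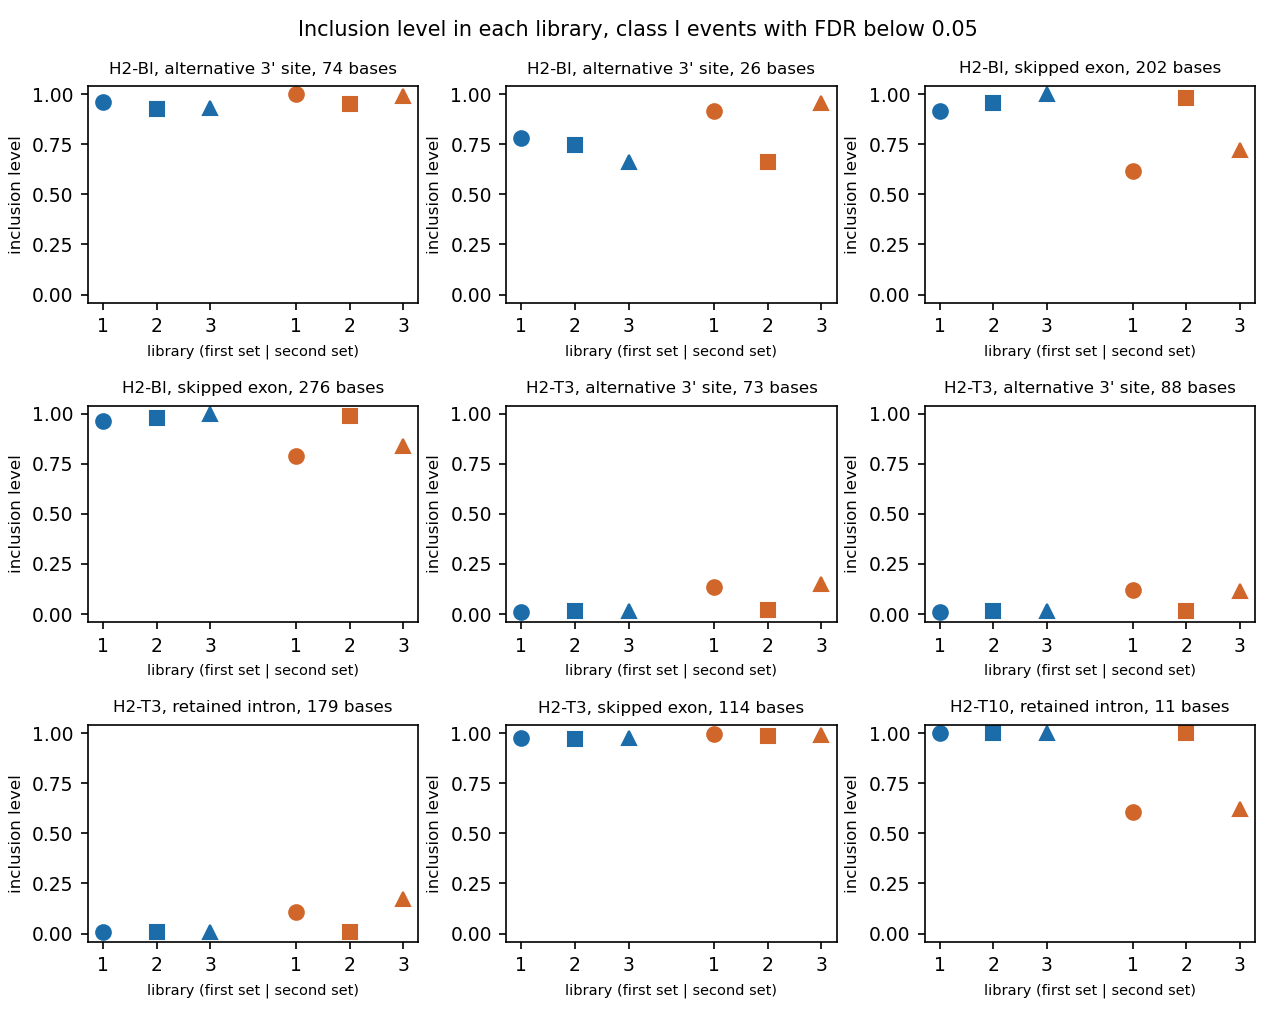
Inclusion level (0 to 1) in each of the 6 libraries for the 9 class I events with an FDR below 0.05, with points coloured by set and shaped by library number. Libraries 1 and 3 of the second set lie apart from the other 4, as for the 11-base H2-T10 gap at 0.605 and 0.619 against 1.

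The remaining members had no event with an FDR below 0.05 in the authors' deposited table. The event with the smallest p in H2-K1, a retained intron, was at 0.753, 0.878 and 0.817 in the first set and at 0.767, 0.720 and 0.749 in the second, with a difference of 0.071 and an FDR of 0.0963 in the authors' deposited table. The sets overlapped in it. A retained intron of H2-Q1 ran from 0.134 to 0.282 and one of H2-T23 from 0.0999 to 0.146, with FDRs of 0.408 and 0.612 in the authors' deposited table. For H2-D1 an event listed as a pair of mutually exclusive exons ran from 0.630 to 0.687. As skipped exons, both exons of that pair were included at 0.999 or above in every library. They are thus not alternatives to each other, and the level only splits reads between them. A skipped exon of H2-Q2 was at 0.919 to 0.927 in the first set and 0.893 to 0.912 in the second, which did not overlap, with an FDR of 0.186 in the authors' deposited table. One of H2-T22 ran from 0.938 to 0.997 and one of H2-M3 from 0.970 to 1.

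The other genes of the pathway were read from lists. Of the 26 other class I and class I-like genes listed, 12 were tested, 7 higher and 5 lower in PTBP1_KO, and 0 had a q below 0.05 in the authors' deposited table, with 2 at an unadjusted p below 0.05. H2-Q4, a Q-region gene, was the most abundant of them, at 64.1 FPKM in WT and 53.6 FPKM in PTBP1_KO. Fcgrt, the neonatal Fc receptor, was at 29.2 and 32.7 FPKM, and H2-Q7 was at 21.7 and 22.2 FPKM. The median log2 ratio of the 12 tested genes was 0.03.

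All 9 genes of assembly and peptide loading were higher in PTBP1_KO, with a median log2 ratio of 0.16, and 0 of them had a q below 0.05, or an unadjusted p below 0.05, in the authors' deposited table. B2m, the light chain, was at 1573 FPKM in WT and 1696 FPKM in PTBP1_KO. The chaperone Calr was at 970 and 1142 FPKM and the oxidoreductase Pdia3 at 368 and 412 FPKM. The peptide transporter subunit Tap1 was at 34.7 and 37.0 FPKM.

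The immunoproteasome list held 5 tested genes, 3 higher and 2 lower, and the list of regulators of class I transcription held 10, 6 higher and 4 lower. No gene of either list passed at q or at an unadjusted p below 0.05 in the authors' deposited table. Psmb8, an immunoproteasome subunit, was at 179 FPKM in WT and 193 FPKM in PTBP1_KO, and the proteasome activator subunit Psme2 was at 224 and 229 FPKM. Irf1, an interferon-responsive transcription factor, was at 114 and 119 FPKM, and Nlrc5, the class I transactivator, at 8.26 and 10.37 FPKM. The NKG2D ligands were near the floor, with Raet1e at 0.871 and 0.908 FPKM and Ulbp1 at 0.731 and 0.956 FPKM.

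Among 8 tested receptors for class I, all 8 were higher in PTBP1_KO, with a median log2 ratio of 0.22, and 1 had a q below 0.05 in the authors' deposited table, beside 0.388% of all tested genes that were higher at that q. That was Cd8a, the coreceptor that binds class I and the thymus leukemia antigen, which rose from 4.30 FPKM to 7.52 FPKM in the PTBP1_KO group, with a log2 fold change of 0.81 and a q of 0.0125 in the authors' deposited table. The rise stood beside that of other lymphocyte genes. The list of 11 leukocyte and intraepithelial T cell markers, which also holds Cd8a, summed to 155 FPKM in WT and to 252 in PTBP1_KO. With Cd8a counted, 10 of the 11 were higher and 1 lower, with a median log2 ratio of 0.57. The 3 with a q below 0.05 in the authors' deposited table were Cd8a, Gzma and Gzmb. Gzma and Gzmb, granule proteases of cytotoxic cells, rose from 54.9 to 101 FPKM and from 18.9 to 35.3 FPKM, each with a q of 0.0125 in the authors' deposited table. Markers of B and plasma cells summed to 36.5 and 52.1 FPKM, and those of antigen-presenting cells to 1618 and 1897 FPKM. Nearly all of the latter sum came from Cd74 (790 and 898 FPKM), H2-Ab1 (373 and 451 FPKM), H2-Eb1 and H2-Aa. Of the other tested markers in that list, Itgam was the highest, at 4.21 and 4.19 FPKM. Itgam and Cd68 were lower in PTBP1_KO, and Lyz2, Itgax and Csf1r were higher. The sum therefore says little about the number of antigen-presenting cells. The part of leukocytes, B and plasma cells and antigen-presenting cells in the class I levels was not tested.

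**Figure D5:**
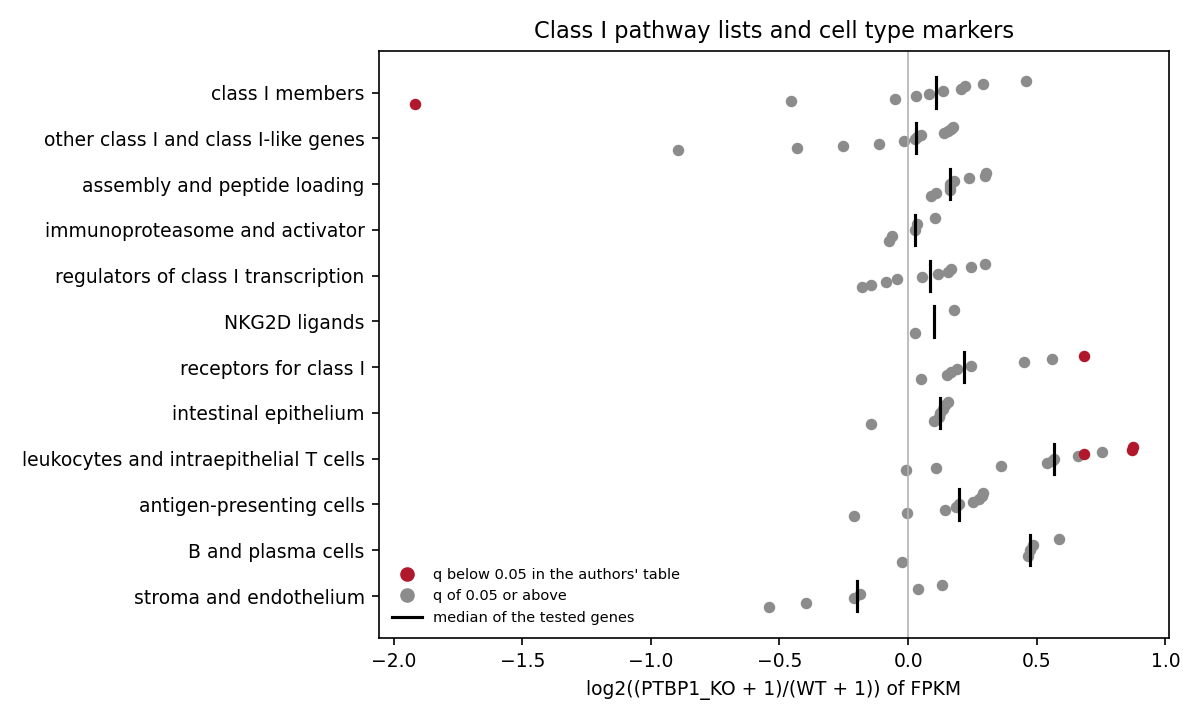
Each tested gene of the class I members, of 6 further class I pathway lists and of 5 marker lists, as log2((PTBP1_KO + 1)/(WT + 1)) of FPKM, with the list median as a bar and red for a q below 0.05. H2-Bl is the lowest point, at -1.92, and the leukocyte list has a median of 0.57.

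Genes of similar WT level were set beside H2-Bl as a description only, since H2-Bl was picked by this same contrast. The window used the WT level, the group in which H2-Bl was higher. Among 1603 tested genes with a WT FPKM within 2-fold of that of H2-Bl, those nearest to it in log2 fold change were, by the authors' deposited table, Reg1 (-0.57), Mprip (-0.49) and Snhg20 (-0.48), measured over 2 groups. The closest of them, Reg1, differed from H2-Bl by 1.39 on the log2 scale. Reg1, a secreted lectin of the gut, was at 126 FPKM in WT and 84.9 FPKM in PTBP1_KO.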

How the data were processed

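Polyadenylated RNA of 6 crypt cell samples, 3 WT and 3 PTBP1_KO, was sequenced with a stranded kit, per the labels' protocols. The submitters' processing notes name bcl2fastq 2.20, Trimmomatic 0.38, STAR 2.6.1d, Cufflinks, Cuffdiff and the build mm10. FPKM values, 1 per gene and group, were deposited by the authors with a log2 fold change, a p-value and a q-value, and were used as deposited. The q-values equal Benjamini-Hochberg values over the 15460 tested genes. The 5 splicing tables were deposited by the authors with read counts per event and library, a p-value, an FDR and an inclusion level difference (a score from -1 to 1, first set minus second). Per the file headers these are 2 unnamed sets of 3 libraries, so no comparison by genotype was made from them.

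Inclusion levels were recomputed from the counts and form lengths, with differences within 0.00102 of the deposited ones, and the 10 columns that list such levels were left out. Reads were scaled by the median ratio over 30617 skipped-exon events with at least 50 reads in every library. The 5 tables hold 48132062 to 59540138 reads per library, counted again where events overlap. log2 ratios used a pseudocount of 1 FPKM. Scripts ran in Python 3.11.15 (pandas 2.3.3, scipy 1.17.1, Biopython 1.88) and were tested on simulated data. GENCODE M21 gave transcripts and coordinates, and 54583 of 55331 gene identifiers matched it with their version, as did 9 of the 10 members.

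Named were all members, called genes or else the 3 most abundant of each list, the 3 genes most like H2-Bl, called member events, the event with the smallest p of each member, and the nearest gene on each side of H2-Bl. Tap1, Nlrc5, H2-T24, H2-Q6, Ddx3y and the named genes within 110 kb of H2-Bl with a p below 0.05 were chosen after their values were seen. So were the Gm10499 event, the H2-D1 skipped exons, the other 3′ site events of H2-Bl exon 2 and the member events past the FDR alone. The members and lists were chosen with earlier results of these data known. Alternatives were other thresholds, pseudocounts, centring, length correction and left-out libraries. A chance test for the libraries that stood apart was not made.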

Additional observations from a re-analysis of the deposited data

How the results depend on the processing

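With 1 FPKM value per group and splicing sets without genotype, no spread of the class I levels within a genotype could be given. No paired analysis was possible because the expression table has 1 value per group and the splicing columns name neither genotype nor replicate. Member genes called numbered 1, or 3 at an unadjusted p below 0.05. Called member events numbered 4, and 7, 1 and 9 with a minimum difference of 0.05, of 0.2 and of none. The log2 of the summed class I level was -0.0154, and 0.0312 without H2-Bl, a reversal in sign of a small value. Another alternative left out libraries 1 and 3 of the second set, with library 2 alone left in that set. It was chosen after the values were seen. Without the pair, the inclusion differences of H2-Bl exon 3 went from 0.107 to -0.0108, with its inner site from 0.183 to -0.0224, and of the 26 bases of exon 2 from -0.114 to 0.0695. Those of H2-T10 went from 0.259 to 0 and those of the H2-T3 upstream sites and intron from -0.088 to -0.00437, from -0.069 to -0.00350 and from -0.089 to -0.000137. The remaining events past the FDR kept their sign, the 74 bases of H2-Bl exon 3 going from -0.043 to -0.0138 and the 114-base H2-T3 exon from -0.015 to -0.0093. Leaving out 1 library at a time kept the sign of every difference, over 0.105 to 0.286 and 0.0646 to 0.166 for the exon 3 events, -0.205 to -0.0585 for exon 2, 0.190 to 0.388 for H2-T10, and -0.130 to -0.0631, -0.102 to -0.0519 and -0.134 to -0.0512 for the H2-T3 upstream sites and intron. As plain shares of reads, inclusion pooled over 6 libraries went from 0.912 to 0.933 (H2-Q2), from 0.835 to 0.937 (H2-Bl exon 3), from 0.127 to 0.408 (H2-T23), from 0.209 to 0.376 (H2-Q1) and from 0.781 to 0.884 (H2-K1), since lengths are then not corrected. The median of 6 libraries gave 0.935, 0.969, 0.956 and 0.765 for the H2-Bl events, where pooled reads gave 0.704, 0.835, 0.987 and 0.893, because pooling weights the libraries with more H2-Bl reads. All log2 ratios of single members kept their direction with another pseudocount or centring. Depth limits H2-T10 most, with 22 to 63 reads per library at its gap.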
